A study of Rattus norvegicus with 24 samples.

Results

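The glucocorticoid and fasting genes followed here are 10 rat genes, read in every lung sample of this series: Nr3c1, Fkbp5, Zbtb16, Tsc22d3, Klf9, Sgk1, Nfkbia, Arrdc3, Pdk4 and Angptl4. They are 10 of the 30667 genes in the expression table and all 10 have a measured value in all 24 samples. They were chosen by their values in these samples, by letter and by number, so every level, difference and call given for them describes the choice and supports nothing further. The study concerns a lung tumour model in the rat, Rattus norvegicus, in which smoky coal is the inducing agent. Messenger RNA from lung tissue was sequenced in 24 samples. Each title joins 1 of the letters A, B, C and G to a sample number (1 to 6), which gives 6 samples per letter and 4 per number. All 24 carry the same protocol label, smoky coal. The labels name no dose, time, strain, age or control, and do not say what a letter or a number stands for, whether samples with the same number share an animal, or whether the samples of a letter came from separate animals. Tests between letters or numbers therefore measure only the spread between these samples, which may be technical.

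Glucocorticoids, the steroid hormones of the adrenal cortex (corticosterone in the rat), bind the glucocorticoid receptor in the cytoplasm, where it is held in a complex with heat shock proteins. The bound receptor enters the nucleus and activates genes that carry its response element, among them feedback inhibitors of the receptor and inhibitors of inflammatory signalling. In the lung this pathway is known for maturation of the alveolar epithelium and for restraint of inflammation. Fasting raises glucocorticoids and lowers insulin, so that FOXO factors enter the nucleus, and it supplies fatty acids that activate PPAR receptors. Pdk4 and Angptl4 are textbook targets of both routes.

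The promoters of 3 members are printed because they hold a motif that was searched for, FOXO in 2 and kappaB in 1. RefSeq promoters of the rat build GRCr8, from 250 bases before to 50 bases after a start site, were found for 9 of the 10 members, with 14 start sites in all, and Zbtb16 had no entry. Each promoter was searched on both strands. The FOXO motif GTAAACA was found in 2 of the 14, those of Klf9 and Tsc22d3, and in 3.78% of the 33469 rat promoters of the same length. The kappaB motif, GGG and TTTCC with 2 bases between them, was found in 1 of the 14, that of Nfkbia, and in 1.53% of all promoters. The glucocorticoid receptor palindrome, AGNACA and its reverse complement with 3 bases between them (0.0568% of all promoters), the single arm AGAACA (20.7%), the PPAR motif, AGGNCA repeated with 1 base between (0.415%), and the clock E-box CACGTG (6.42%) were in none of the 14 windows. The palindrome holds the single arm wherever its first N is an A. The sequences below read 5′ to 3′ on the gene's strand, with the motif in capitals.
Klf9, chr1:230126396-230126695, plus strand: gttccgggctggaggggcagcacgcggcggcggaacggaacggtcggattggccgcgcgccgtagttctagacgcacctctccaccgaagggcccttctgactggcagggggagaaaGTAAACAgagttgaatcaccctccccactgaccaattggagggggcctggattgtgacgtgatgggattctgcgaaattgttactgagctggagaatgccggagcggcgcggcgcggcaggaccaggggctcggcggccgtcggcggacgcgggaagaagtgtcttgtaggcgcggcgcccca
Tsc22d3, chrX:109009985-109010284, minus strand, from one of its start sites: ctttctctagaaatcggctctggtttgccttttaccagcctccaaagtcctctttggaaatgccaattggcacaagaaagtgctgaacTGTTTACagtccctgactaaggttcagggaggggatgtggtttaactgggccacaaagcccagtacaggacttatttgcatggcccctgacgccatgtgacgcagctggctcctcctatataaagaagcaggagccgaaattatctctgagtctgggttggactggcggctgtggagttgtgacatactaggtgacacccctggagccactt
Nfkbia, chr6:78597023-78597322, minus strand: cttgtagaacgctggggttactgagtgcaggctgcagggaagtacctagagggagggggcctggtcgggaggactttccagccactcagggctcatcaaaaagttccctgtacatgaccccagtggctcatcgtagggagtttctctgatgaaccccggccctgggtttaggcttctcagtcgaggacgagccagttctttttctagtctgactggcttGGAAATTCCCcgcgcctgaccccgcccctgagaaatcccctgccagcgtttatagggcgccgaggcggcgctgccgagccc
The motif lies at -133 to -127 from the start in Klf9, at -162 to -156 in Tsc22d3, where it reads on the opposite strand, and at -31 to -22 in Nfkbia, also on the opposite strand. A match is a string of letters and not a measured binding site.

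Values are the deposited normalized counts, which the authors had already adjusted so that libraries can be compared; they summed to between 61717516 and 66007148 per sample. They are not per length, so levels are compared between samples and never between genes. The tissue label held in every sample: the summed values of 8 alveolar type 2 markers, surfactant genes among them, lay between 1234232 and 1874316. Some libraries stood apart in markers of other tissue. The sum of 6 adipocyte markers was 14733 in A2 and 7692 in A4, against 539 to 2567 in the other 22. The sum of 6 skeletal muscle markers was 71182 in A4 and 17089 in B4, against at most 3570 elsewhere, and the sum of 6 squamous epithelium markers was 17946 in A4, against at most 1813. The sum of 6 cardiac muscle markers was 58832 in A4 and 23569 in G5, against at most 9231 elsewhere. In bulk tissue, fewer cells of a type and less RNA per cell cannot be told apart. No 2 samples held identical values.

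**Figure D1:**
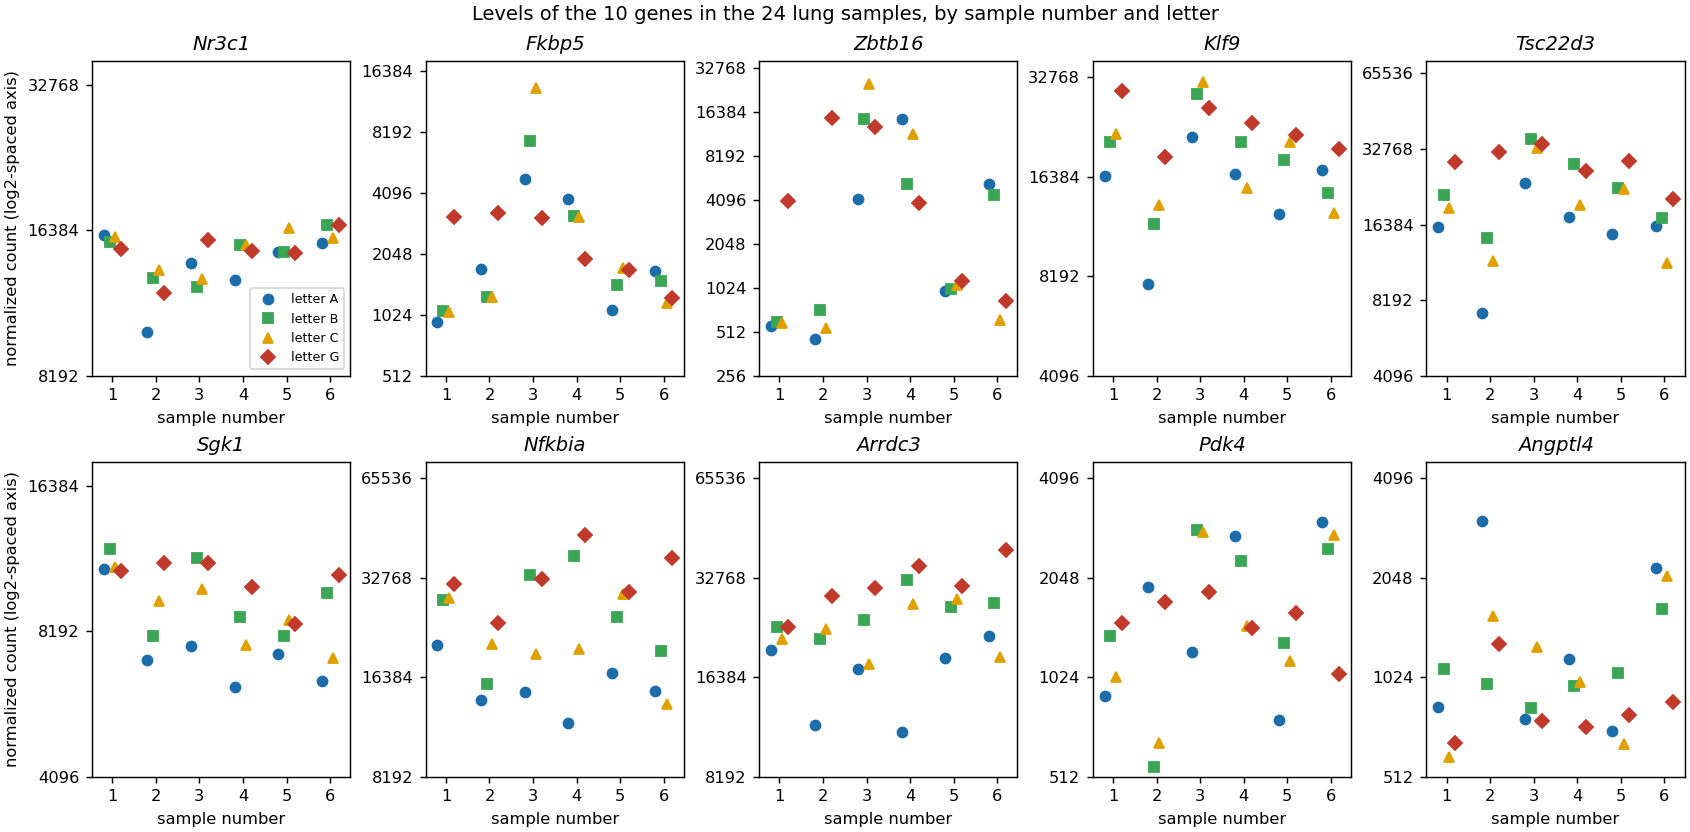
Normalized counts (log axis) of the 10 genes, 1 panel each, by sample number; each point is 1 sample, with colour and shape for the letter. Zbtb16 spans the widest range, from 453 to 25693, and Nr3c1 the narrowest, from 10090 to 16806.

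The 10 genes differed more between the 6 numbers than between the 4 letters in 8 cases. Of the variance of log2(value + 1) over the 24 samples, the numbers took 69.3% for Fkbp5, 64.8% for Nr3c1, 57.4% for Zbtb16, 56.8% for Klf9, 54.1% for Angptl4, 44.1% for Tsc22d3, 40.5% for Pdk4 and 39.6% for Sgk1. The letter shares of these 8, in the same order, were 0.787%, 7.84%, 3.81%, 24.6%, 12.3%, 36.5%, 0.610% and 38.2%. The numbers have 5 degrees of freedom and the letters 3, and per degree of freedom the letters took more for Tsc22d3 and Sgk1. The letters' whole share was the larger for Arrdc3 (61.3% against 9.38% for the numbers) and Nfkbia (57.9% against 14.7%). Over the 9352 genes with a mean of at least 1000, the median shares were 8.92% for letters and 53.7% for numbers. A limma fit over all 30667 genes, with letter and number as terms and Benjamini-Hochberg adjustment at 0.05, called 7 of the 10 different between numbers, where 31.5% of all genes were called. That share, here and below, covers genes of all levels. Over all genes the median number share of variance was 37.1%, lower than the 53.7% at a mean of at least 1000. The 3 not called were Pdk4, Nfkbia and Arrdc3. In the fit on letters alone, the test over the 4 letters called 0 of the 10 (0.00652% of all genes). An unadjusted p under 0.05 in that test was found for 4 members and for 1199 of the 30667 genes.

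Nr3c1, which encodes the glucocorticoid receptor, varied least of the 10. The values for A, B, C and G were 10090, 13029, 13576 and 12167 in number 2. The corresponding values were 15454, 16768, 15820 and 16806 in number 6. The other 16 samples lay between 12498 and 16547, so A2 and G2 were the lowest libraries and G6 and B6 the highest. Number 2 was lower than the mean of the other numbers by a log2 difference of -0.31 (SE 0.06), and this call held when any 1 sample was left out. Number 6 was higher by 0.19 (SE 0.06), a call lost in 17 of 24 such refits. Number 2 also had low marker sums for endothelium, from 175605 to 270293 against 241957 to 341392 in the other 20 samples, and for alveolar type 1 cells, from 192814 to 264341 against 262855 to 337121. Their part in the Nr3c1 values was not tested.

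Some chaperone genes whose proteins hold and fold the receptor were higher in number 4 and lower in number 6. Of 21 listed genes of the receptor's machinery found in the table, 14 were called different between numbers, as were 31.5% of all genes. Hspa8, a constitutive heat shock chaperone, had 61643, 68291, 56939 and 69687 in A4, B4, C4 and G4, and 24443, 28197, 30218 and 28883 in A6, B6, C6 and G6. Every number 4 value thus lay above every number 6 value. In number 4, 5 of the 21 were higher and 0 lower, where 2.72% of all genes were higher and 2.02% lower (4.74% in either direction). The list's median was -0.01, with 9 of 21 above 0. The 5 were Hspa8 (log2 difference 0.74, SE 0.10), the receptor co-chaperone Fkbp4 (0.63, SE 0.08), the chaperone Hsp90ab1 (0.49, SE 0.07), Stip1 and Hsp90aa1. In number 6, 8 were lower and 2 higher (median -0.09), where 4.02% of all genes were lower and 4.11% higher. Hspa8 was lower by -0.69 (SE 0.10), Fkbp4 by -0.59 (SE 0.08) and Hsp90ab1 by -0.52 (SE 0.07). Nr3c2, the mineralocorticoid receptor, which also binds corticosterone, was higher in number 6 by 0.52 (SE 0.08) and lower in number 2 by -0.59 (SE 0.08). None of the 21 was called in G against A.

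Fkbp5 encodes an immunophilin that lowers the receptor's affinity for hormone, a feedback target of the receptor. Its values in number 3 were 4810 in A3, 7351 in B3, 13556 in C3 and 3079 in G3, and in number 4 they were 3831, 3141, 3101 and 1926. Number 1 held 937, 1068 and 1061 in A1, B1 and C1 and 3096 in G1. Number 2 held 1731, 1252 and 1257 in A2, B2 and C2 and 3256 in G2. Numbers 5 and 6 stayed between 1075 and 1735. The libraries above 3000 were thus A3, A4, B3, B4, C3, C4, G1, G2 and G3, which crosses both letters and numbers. Number 3 was higher than the mean of the others by 1.88 (SE 0.31) on the log2 scale, the call held when any 1 sample was left out, and the value without C3 was 1.45.

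Zbtb16, a zinc finger transcription factor strongly induced by glucocorticoids in many tissues, had the widest range. Its values in A, B, C and G were 4171, 14708, 25693 and 13056 in number 3 and 14773, 5270, 11543 and 3883 in number 4. They were 562, 601, 591 and 4050 in number 1, and 453, 724, 540 and 14969 in number 2. They were 976, 1000, 1064 and 1144 in number 5, and 5238, 4465, 615 and 836 in number 6. The values left a gap: 12 samples lay between 453 and 1144, the other 12 between 3883 and 25693, and no sample lay in between. The samples above the gap were all of numbers 3 and 4 with A6, B6, G1 and G2; those below were all of number 5 with the rest. The log2 SD was 1.94, larger than that of 99.9% of the 9352 genes with a mean of at least 1000. Number 3 was higher than the mean of the other numbers by 2.75 (SE 0.71), a call lost without B3, C3 or G3 (the lowest difference was 2.19, without C3).

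**Figure D2:**
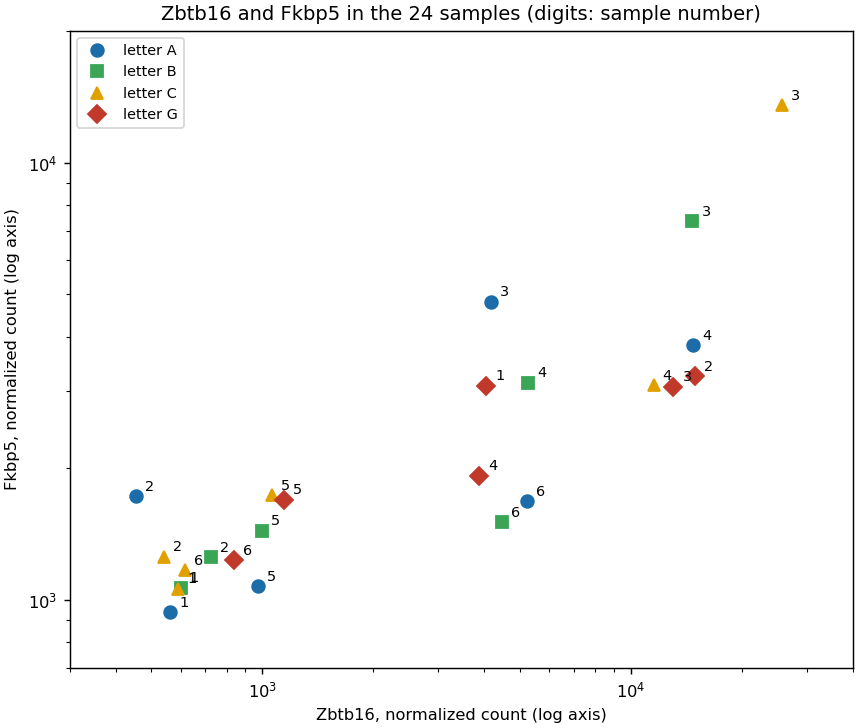
Normalized counts of Fkbp5 (vertical) against Zbtb16 (horizontal), both on log axes; each point is 1 sample, with colour and shape for the letter and a digit for the sample number. The 12 samples with Zbtb16 of at most 1144 have Fkbp5 between 937 and 1735, and the 12 with at least 3883 have Fkbp5 between 1508 and 13556.

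Zbtb16 and Fkbp5 were read together within each side of the gap. The count over pairs of members and the profile distances given further below pool both sides of it. Among the 12 samples above it, Pearson's r between their log2 values was 0.68 (permutation p = 0.0102) and Spearman's rho was 0.61 (permutation p = 0.0397). Without the 2 samples farthest from the median, r was 0.45. Among the 12 samples below it, r was 0.36 (permutation p = 0.244) and rho was 0.36 (permutation p = 0.256), and r was -0.09 without the 2 farthest. Both genes were members chosen on these values and samples with the same number may not be independent, so these are descriptions.

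Tsc22d3 encodes GILZ, a leucine zipper protein that mediates part of the anti-inflammatory action of glucocorticoids. Its values in number 3 were 23984, 35888, 33125 and 34345 in A, B, C and G. In number 2 they were 7277, 14441, 11744 and 31770. Number 3 held the highest value of each letter, and G2 was above A2, B2 and C2, while A2 was the lowest of all 24. By letter, A ran from 7277 through a median of 16085 to 23984, and G from 20630 through 29303 to 34345, with A3 the only A sample inside the G range. The log2 difference of number 3 from the others was 0.74 (SE 0.15) and was no longer called without C3, at 0.65. For number 2 it was -0.65 (SE 0.15) and was no longer called without A2, at -0.45. Neither was called in a fit with no letter term (limma adjusted p = 0.0751 and 0.0519).

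Klf9, a Krüppel-like factor induced directly by the receptor, likewise had its largest positive difference in number 3 and its largest negative one in number 2. In number 3 it had 21640, 29197, 31811 and 26449 in A, B, C and G, and in number 2 it had 7777, 11810, 13426 and 18829. A2 was again the lowest library of all, and B2 and C2 stood below all B and C samples of the other numbers with the exception of C6 at 12766. The log2 difference was 0.66 (SE 0.12) in number 3 and -0.69 (SE 0.12) in number 2, and neither call was lost when any 1 sample was left out. G ran from 18829 to 29797 with a median of 22826, and A from 7777 to 21640 with a median of 16567.

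Over the 24 samples with each letter's mean removed, 45 pairs of members were examined and 13 had a Pearson r with an adjusted permutation p under 0.05. The permutations treated the 24 samples as independent, and samples with the same number may not be. Each permutation p over the 24 samples, here and below, may therefore be too small and is a description. Tsc22d3 and Klf9 were the closest pair by Pearson's r, at 0.91 (permutation p = 1e-05, adjusted p = 0.000225). That p is the smallest that 100000 permutations can give. Their rho was 0.79 (permutation p = 2e-05, adjusted p = 0.0003) and was not the largest among the pairs. Without A2 and C3, r was 0.85, and with the number means also removed it was 0.83. Fkbp5 and Tsc22d3 had r = 0.70 (permutation p = 0.00013; adjusted p = 0.00146) and rho = 0.68 (permutation p = 0.00044; adjusted p = 0.00495), 0.56 without B3 and C3, and 0.60 with the number means removed.

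In number 3, 4 members were called higher (Zbtb16, Fkbp5, Tsc22d3 and Klf9), where 4.98% of all genes were called and 2.89% were higher and 2.09% lower. The rule used the same values, so this count is not read against that share. Other glucocorticoid-induced genes were taken from a list of which 37 are in the table, and 10 of these were higher in number 3 and 2 lower. The list's median log2 difference was 0.21, with 26 of 37 above 0, and that over all genes was 0.00. Klf15, a factor of amino acid and glucose metabolism, rose by 0.97 (SE 0.17; limma adjusted p = 0.00148), with 4088, 7001, 7552 and 5590 in A3, B3, C3 and G3. Map3k6, a stress kinase, rose by 0.95 (SE 0.16; limma adjusted p = 0.00112), with 5011, 9069, 10351 and 7080. The 10 also held Mertk, the receptor for clearance of dying cells (0.58, SE 0.09), Glul, glutamine synthetase (0.60, SE 0.10), the cell cycle inhibitor Cdkn1a (0.63, SE 0.10) and Hif3a, a hypoxia-inducible factor subunit (2.01, SE 0.48), which were named after their values were seen. The 2 lower were Cxcr4 (-0.58, SE 0.12), a chemokine receptor, and Tat. Without B3 the higher count was 6. The sum of 6 macrophage markers was 45961 to 56213 in number 3 against 24688 to 39744 in the other 20 samples, and Mertk is a macrophage gene; the part of this in the list's values was not tested.

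In number 2, 3 members (Klf9, Tsc22d3 and Nr3c1) were called lower and Angptl4 higher, where 21.8% of all genes were called, 11.5% higher and 10.3% lower. Of the 37 other glucocorticoid-induced genes, 10 were lower and 4 higher, with a list median of -0.08 against 0.01 over all genes. Klf15 was lower by -0.94 (SE 0.17), with 1026, 1958, 1935 and 3742 in A2, B2, C2 and G2, and Map3k6 by -0.62 (SE 0.16). The 4 higher were the metallothioneins Mt1 (0.93, SE 0.18) and Mt2, Lcn2, a neutrophil and acute phase protein (1.58, SE 0.42), and Nfil3. Of 20 genes of NF-kappaB feedback and its targets, 12 were higher and 0 lower. Ccl2, a monocyte chemokine, had 3446, 393, 1098 and 193 in A2, B2, C2 and G2 against 58 to 226 in the other 20 samples, so that only G2 fell inside their range (log2 difference 2.84, SE 0.33). Il1b rose by 1.08 (SE 0.27), and Nfkbie, a paralog of Nfkbia, by 0.59 (SE 0.12). The sum of 7 neutrophil markers was 36577 in A2 and 23654 in C2, against 3149 to 17955 in the rest, and its part was not tested. Without A2 the counts were 2 higher for the NF-kappaB list, and 5 lower and 1 higher for the glucocorticoid list.

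Within number 2, G2 lay above A2, B2 and C2 in some of the members. Its Zbtb16 value of 14969 compares with 453 to 724, its Fkbp5 value of 3256 with 1252 to 1731, and its Tsc22d3 value of 31770 with 7277 to 14441. For Pdk4 and Angptl4, A2 was the highest of number 2, at 1928 and 3044. G1 lay above the rest of number 1 in Zbtb16, at 4050 against 562 to 601, and in Fkbp5, at 3096 against 937 to 1068. It was the lowest of number 1 in Sgk1, at 10907, and below B1 in Arrdc3, at 23215 against 23321. Hif3a was also higher in G1 and G2 than in the rest of their numbers, at 360 in G1 against 67 to 93 and at 329 in G2 against 21 to 48. In number 6 Zbtb16 was at 836 in G6 and 615 in C6, against 5238 in A6 and 4465 in B6. The sum of 6 B and plasma cell markers was 73999 in G2, against at most 42163 in the other 23 samples, and its part was not tested. These are single libraries, and no test between libraries was made. The check for values far from their group, given in a later section, flagged Zbtb16 in G1 and G2 and Fkbp5 in G1 among their numbers.

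**Figure D3:**
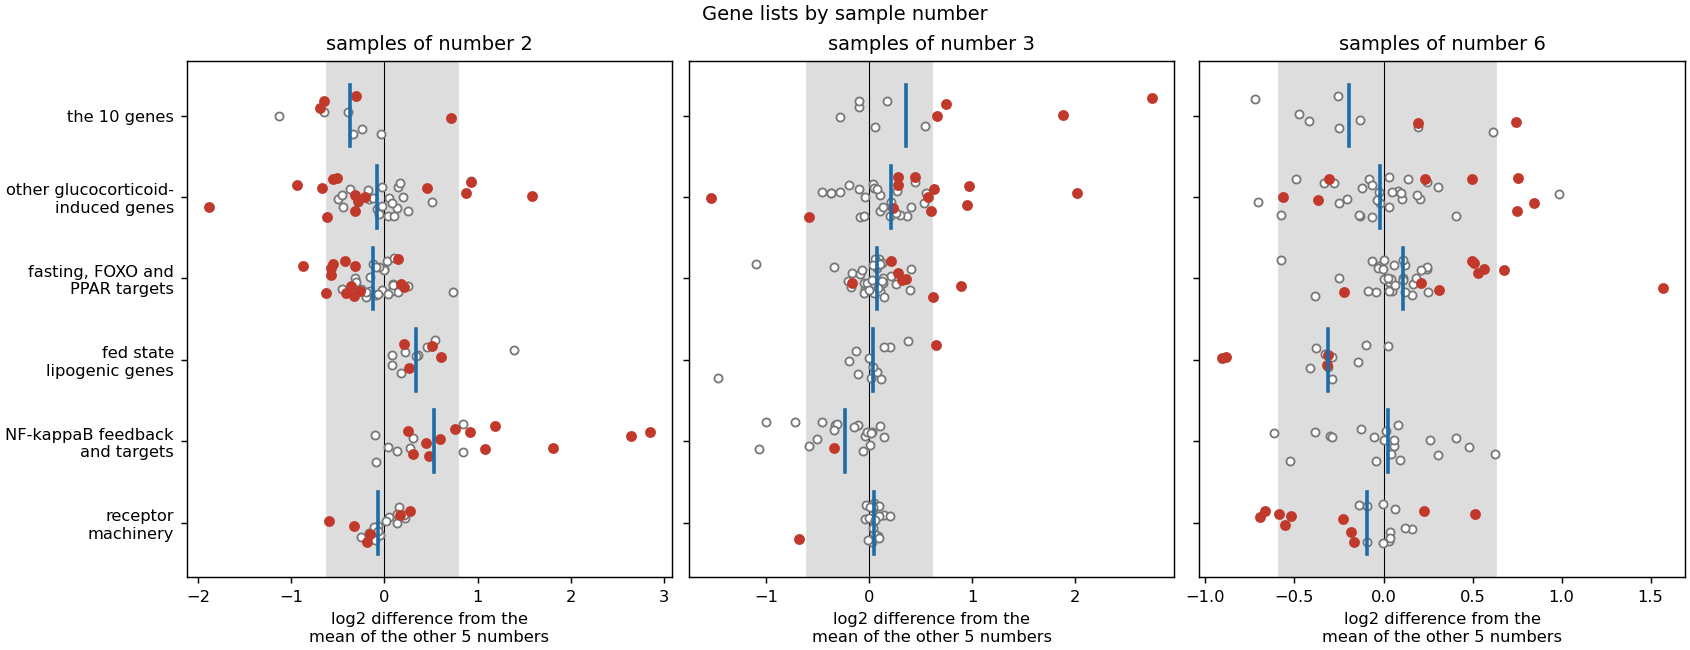
Log2 difference of number 2, 3 or 6 from the mean of the other 5 numbers, 1 panel per number and 1 point per gene, for the 10 genes and 5 gene lists; filled red points passed the threshold, blue bars are list medians and the grey band holds the 5th to 95th percentile of all genes. In number 2 the NF-kappaB list has 12 red points, all above 0, and in number 6 the fed state list has 4, all below 0.

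Nfkbia encodes the NF-kappaB inhibitor I-kappa-B alpha, which both NF-kappaB and the glucocorticoid receptor induce. A held 20456, 13943, 14776, 11949, 16879 and 14931 for numbers 1 to 6, a mean of 15489 ± 2910 (SD, n = 6). G held 31478, 23870, 32511, 44172, 29620 and 37727, a mean of 33230 ± 6988 (SD, n = 6), so that the lowest G value was above the highest A value. B ranged from 15689 to 38187, with a mean of 26700 ± 8413 (SD, n = 6), and C from 13621 to 29353, with a mean of 21899 ± 6002 (SD, n = 6), and both overlapped A and G.

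Arrdc3, an arrestin domain protein that restrains adrenergic signalling and belongs to the family of Txnip, had the same pattern. A held 19846, 11713, 17348, 11225, 18681 and 21922 for numbers 1 to 6, a mean of 16789 ± 4389 (SD, n = 6). G held 23215, 28946, 30536, 35630, 30997 and 39875, a mean of 31533 ± 5719 (SD, n = 6), and again no G sample was as low as the highest A sample. The lowest values of all 24 were A4 and A2, the libraries with the high adipocyte marker sums. B had a mean of 25944 ± 3798 and C of 22773 ± 4259 (SD, n = 6 each).

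Sgk1, a kinase that raises epithelial sodium transport in response to mineralocorticoids and glucocorticoids, was highest in number 1. Its values there were 11032, 12151, 11137 and 10907 in A, B, C and G. The other numbers lay between 6278 and 11624 and overlapped these. Number 1 was higher than the others by 0.38 (SE 0.08), and was no longer called without A1, at 0.29. It was the only member called in number 1, where 11.9% of all genes were called, 5.62% higher and 6.25% lower. In number 1, 9 of the 37 other glucocorticoid-induced genes were lower and 2 higher: Rgs2, a brake on G protein signalling, fell by 0.55 on the log2 scale (SE 0.11) and Cxcr4 by 0.44 (SE 0.12). The sodium channel subunit Scnn1b and the transglutaminase Tgm2 were the 2 higher.

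**Figure D4:**
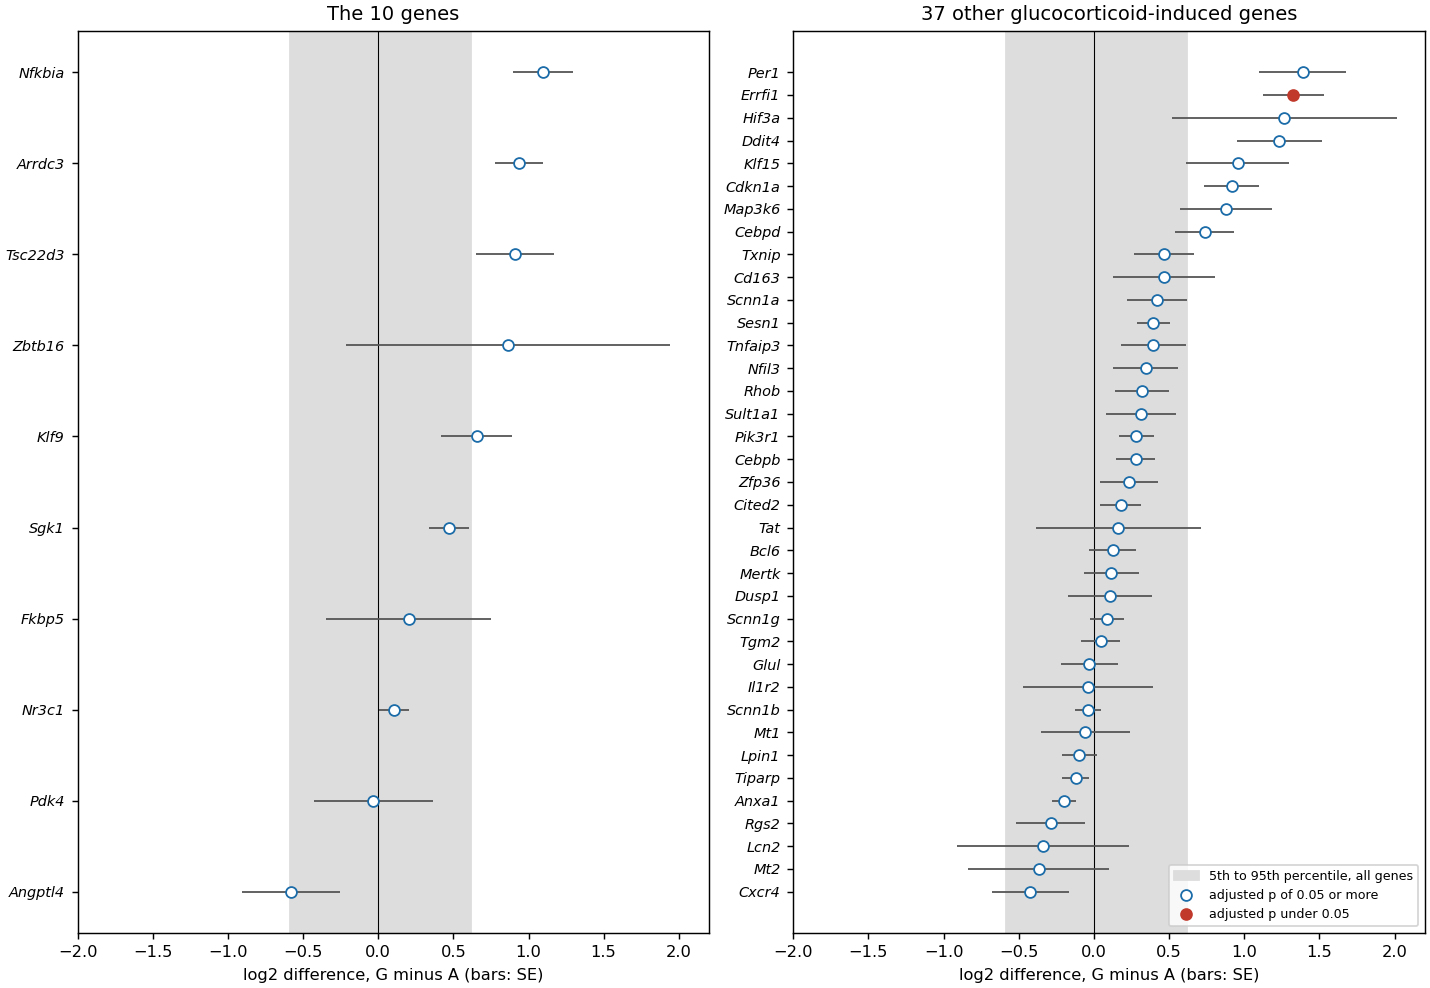
Fitted log2 difference G minus A with its SE (horizontal bars) for the 10 genes (left) and for 37 other glucocorticoid-induced genes (right), in order of size; the grey band holds the 5th to 95th percentile of all genes and a filled red point passed the threshold. Nfkbia, at 1.09, heads the left panel, and the only filled point is Errfi1, at 1.33.

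Between G and A, 0 of the 10 members passed the threshold in the limma fit on letters, which has no term for number. In that fit 0.00652% of all genes passed, 2 genes in all, and 5 members and 2500 genes had an unadjusted p under 0.05. Arrdc3 was just short of the threshold (limma adjusted p = 0.0503). With number added as a block, which the closing section describes, 5 of the 10 and 1.27% of all genes were called. The fitted log2 differences were 1.09 (SE 0.20) for Nfkbia, 0.93 (SE 0.16) for Arrdc3, 0.91 (SE 0.26) for Tsc22d3, 0.86 (SE 1.08) for Zbtb16, 0.65 (SE 0.24) for Klf9 and 0.47 (SE 0.13) for Sgk1. They were 0.20 (SE 0.55) for Fkbp5, 0.11 (SE 0.10) for Nr3c1, -0.03 (SE 0.40) for Pdk4 and -0.58 (SE 0.33) for Angptl4. Leaving out 1 library moved Zbtb16 to between 0.43 (without A2) and 1.43 (without A4). Without A2, Angptl4 was at -0.32 and Nr3c1 at 0.018. The median of the 10 was 0.56 and that of all genes -0.01. G and A did not overlap for 2 of the 10, Nfkbia and Arrdc3, both with G higher, as for 0.196% of all genes. G was above A within all 6 numbers for 4 of the 10, as for 3.52% of all genes, with ranges of 0.62 to 1.89 for Nfkbia, 0.23 to 1.67 for Arrdc3, 0.35 to 2.13 for Tsc22d3 and 0.20 to 1.28 for Klf9. Members were chosen on these values. The other 5 letter comparisons called none of the 10. Of all genes, G against B called 0.00326% and G against C 0.00652%, while the 3 comparisons among A, B and C each called 0. All 10 members overlapped between groups in each of the 5 comparisons. In each direction of each of these, at most 46 of 30667 genes did not overlap, so this overlap does not set the members apart. Red blood cell marker sums were 126084 to 313644 in G and 156634 to 1083302 in A, and their part was not tested.

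Of the 37 other glucocorticoid-induced genes, 1 passed in G against A. Errfi1, which restrains the epidermal growth factor receptor, rose by 1.33 (SE 0.20; limma adjusted p = 0.0122). A held 8315, 4427, 8222, 4183, 6650 and 6642 for numbers 1 to 6, and G held 17188, 12310, 15601, 16976, 13886 and 17971, so the groups did not overlap and G was higher in 6 of 6 numbers. B had a mean of 11297 ± 3428 and C of 10220 ± 2638 (SD, n = 6 each), between the means of A (6407 ± 1784) and G (15656 ± 2181). The call was lost without A2, A4 or G4, with an adjusted p of at most 0.0567, and without both A2 and A4 the difference was 1.07 (adjusted p = 0.205). The list's median difference was 0.23, with 26 of 37 above 0 and 13 with an unadjusted p under 0.05. Over all genes, 2500 of 30667 had an unadjusted p under 0.05. Per1, a clock gene that is also on this list, was not called at 1.39 (SE 0.29; limma adjusted p = 0.189), with 4751 to 13620 in A and 17815 to 29302 in G. Klf15 and Map3k6, higher in number 3, were at 0.96 (SE 0.34) and 0.88 (SE 0.30) and were not called. Of the 20 NF-kappaB genes, 0 passed, 2 had an unadjusted p under 0.05, and 3 of 20 were above 0, with a median of -0.19. Ptgs2, the inducible cyclooxygenase, was at -1.09 (SE 0.27), not called.

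Pdk4, the kinase that shuts off pyruvate oxidation when fat is burned, had 3021, 2502, 2756 and 1050 in A, B, C and G of number 6, and A6 was the highest of all 24. It was also high in B3 and C3, at 2865 and 2826, and in A4 at 2735. The lowest were B2 and C2, at 549 and 648, while A2 and G2 had 1928 and 1731. A4 and A2 carried the high adipocyte sums, and their part in the Pdk4 and Angptl4 values was not tested. Pdk4 was called in no number and no letter.

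Angptl4, a secreted inhibitor of lipoprotein lipase induced by PPAR receptors and glucocorticoids, was highest in A2 at 3044, followed by A6 at 2200, C6 at 2080 and B6 at 1648. G6, at 861, was below the other number 6 samples, as it was for Pdk4. The other number 2 samples had 981 in B2, 1571 in C2 and 1288 in G2, and the remaining 16 samples lay between 589 and 1262. Number 6 was higher by 0.74 (SE 0.21) and number 2 by 0.71 (SE 0.21). The first was no longer called without A6, B6 or C6 and the second without A2 or G2, nor with weights for sample quality (0.48; limma adjusted p = 0.194). Without A2 the difference of number 2 was 0.43. Over the 24 samples with letter means removed, Pdk4 and Angptl4 had r = 0.44 (permutation p = 0.0317, adjusted p = 0.0839). Their rho was 0.47 (permutation p = 0.0215, adjusted p = 0.074), and neither adjusted p was under 0.05. The r was 0.63 without B2 and C2 and 0.77 with the number means removed.

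Number 6 held higher values of some fat oxidation genes and lower values of some fat synthesis genes. Here 2 of the 10 members were called, Angptl4 and Nr3c1, where 8.13% of all genes were. Of 39 fasting, FOXO and PPAR genes, 8 were higher and 1 lower, with a median of 0.11, and of 13 lipogenic genes of the fed state 0 were higher and 4 lower, with a median of -0.31 and 1 of 13 above 0. The median over all genes was 0.00. Acot1, a PPAR-alpha-induced thioesterase, had 793, 739, 733 and 266 in A6, B6, C6 and G6, where the highest of the other 20 samples had 324 (log2 difference 1.57, SE 0.18). Ppargc1a, a coactivator of mitochondrial genes, rose by 0.53 (SE 0.09) with 1855, 1985, 1620 and 1526, and the insulin receptor substrate gene Irs2, a FOXO target, by 0.31 (SE 0.08). Cpt1a, the entry step of mitochondrial fatty acid oxidation (0.56, SE 0.10), was named after its values were seen. Fasn, fatty acid synthase, had 26431, 27414, 33813 and 46533 in A6, B6, C6 and G6 against 36775 to 95231 in the other 20 samples (log2 difference -0.91, SE 0.13). Scd1, stearoyl-CoA desaturase, had 7968, 11040, 11679 and 24930 (-0.88, SE 0.24), and Acaca, acetyl-CoA carboxylase, was lower by -0.32 (SE 0.08). G6 lay apart from A6, B6 and C6 for Acot1, Fasn and Scd1; this concerns single libraries and was not tested. Without A6 the counts were 3 higher for the fasting list and 1 lower for the fed list. Of 13 immediate early genes 7 were also higher in number 6, among them Nr4a1 (1.52, SE 0.32), and the sum of 8 alveolar type 2 markers was 1253051 to 1357628 there, against 1234232 to 1874316 in the other 20 samples. The part of either was not tested.

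In G against A the fasting and fed lists held no call, with 9 of 39 and 2 of 13 genes at an unadjusted p under 0.05. Over all genes, 2500 of 30667 had such a p. The medians of the fasting and fed lists were -0.03 and -0.15. Ddit4, a stress-induced inhibitor of mTOR that is on the glucocorticoid list too, was at 1.23 (SE 0.28), and Pik3ip1, an inhibitor of PI3-kinase, was at 0.74 (SE 0.23), neither called. No member was called in number 4 or in number 5, where 4.74% and 1.97% of all genes were.

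Clock genes differed between numbers too, in 17 of the 18 listed, where 31.5% of all genes did. Nr1d1, a repressor of the clock loop, had 1307, 1052, 1057 and 1302 in A1, B1, C1 and G1 and 19850, 14053, 18275 and 6138 in A4, B4, C4 and G4. Number 1 was lower by -2.07 (SE 0.32) and number 4 higher by 2.13 (SE 0.32). Bhlhe41, another clock repressor, stood between 2678 and 2933 in number 3 and between 903 and 2507 elsewhere. Glucocorticoids and feeding both follow the daily rhythm, the labels give no time of day, and the part of the clock in the members' values was not tested. In G against A, 0 of the 18 passed, with 1 at an unadjusted p under 0.05, where 2500 of all 30667 genes were.

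Of 26 paralogs of the members, 17 were called different between numbers (31.5% of all genes) and 0 in G against A (0.00652%). In G against A, 7 of the 26 and 2500 of all 30667 genes had an unadjusted p under 0.05. Txnip, an arrestin of Arrdc3's family that binds thioredoxin, fell in number 2 by 0.55 on the log2 scale (SE 0.12) and rose in number 6 by 0.50 (SE 0.12), while Arrdc3 was at -0.24 (SE 0.14) and 0.19 (SE 0.14). Klf13, of the same subfamily as Klf9, was the 1 paralog higher in number 3, with 15230, 19132, 19079 and 15316 in A, B, C and G against 8276 to 16084 in the other 20 samples.

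The genes whose profiles were most like those of 4 members were found among the 17561 genes with a mean of at least 50, by the root mean square difference of standardized log2 values over the 24 samples. The median of all genes was about 1.40. Nearest to Zbtb16 were Mnt at 0.501, Nedd4l at 0.533 and the member Fkbp5 at 0.533. Nearest to Fkbp5 were Baiap2 at 0.368, Stambpl1 at 0.421 and Bcl2l1 at 0.431. Nearest to Arrdc3 were Gm29020 and Dennd3, both at 0.520, and the member Nfkbia at 0.598. Nearest to Pdk4 were Iba57 at 0.613, Zfp647 at 0.689 and Aqp3 at 0.690, so no gene tracked Pdk4 as closely as Baiap2 tracked Fkbp5. Arrdc3 and Nr3c1, with letter means removed, had r = 0.65 (permutation p = 0.00077; adjusted p = 0.00693) and rho = 0.67 (permutation p = 0.00058; adjusted p = 0.00522), 0.57 without A2 and A4.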

How the data were processed

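Lung RNA of 24 rat samples was sequenced. The values are the authors' deposited normalized counts, a signal on a common library scale; low values lie near whole numbers but whole reads could not be recovered, so raw depth is unknown. Per the submitters' processing notes, STAR and the mouse build GRCm38 were used, with no version or role given. Of 30667 rows, 16143 (52.6%) match a rat RefSeq symbol, all 10 members among them, and 10051 carry mouse gene-model names. Whether rat reads were aligned to mouse genes is not stated, and how that would change a value was not tested.

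Members, lists and tests were chosen with earlier results of these data known. limma 3.58.1 (R 4.3.3, trend) was fitted to log2(value + 1) of all genes with a mean of at least 0.5, on letters and on letter plus number, with Benjamini-Hochberg adjustment at 0.05. This fit was the one planned for normalized values, and the test planned for raw counts was not used. The number contrasts set each number against the mean of the other 5. Named genes are the members, list genes called in a letter contrast, and the 3 nearest profiles of 4 members. Per list, they include at most 4 with the smallest adjusted p over numbers. Where none passes, at most 4 with the largest G minus A difference were added. Other list genes, among them Mt1, Mt2, Lcn2, Nfil3, Scnn1b, Tgm2, Tat, Stip1 and Hsp90aa1, were named after their values were seen. The listed H6pdh and Ctgf were not matched.

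Same-numbered samples deviated together in every pair (r over 0.1 over 21922 genes) for B and A (0.17 to 0.59) and for C and B (0.13 to 0.60), a pairing seen in the data and not in the labels; the block changed no call there. The fit was tested on simulated data for the sign and size of changes added to some genes. Apart from those changes the simulated samples were independent, so the test does not cover same-numbered samples that vary together.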

Additional observations from a re-analysis of the deposited data

Results flagged for a closer look

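In 12 of 100 groups examined (each member within each letter and each number), 1 sample lay far from the others. The check's nominal rate gives about 5 for independent, normally distributed values. Here the counts were not transformed, each sample was read both by letter and by number, and the members were chosen on these values. The 12 is therefore not read against the 5. Zbtb16 was high in A4 among the A samples (14773, next 5238), in B3 among the B samples (14708, next 5270), in G1 among number 1 (4050, next 601) and in G2 among number 2 (14969, next 724). Fkbp5 was high in B3 among the B samples (7351, next 3141), in C3 among the C samples (13556, next 3101) and in G1 among number 1 (3096, next 1068). Sgk1 was high in A1 among the A samples (11032, next 7647). Angptl4 was high in B6 among the B samples (1648, next 1086), in G2 among the G samples (1288, next 861) and in C3 among number 3 (1262, next 829). Nr3c1 was high in C5 among number 5 (16547, next 14787).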

How the results depend on the processing

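Counts below are genes called over all 30667 unless a list is named; the cause of each change was not tested. The test over letters kept 1 gene of 2 under quantile normalization and under scaling to the 75th percentile, which also called 1 member in G against A and 1 NF-kappaB gene lower in number 2. A pseudocount of 0.1 and a minimum mean of 10 each left 1 glucocorticoid-induced gene lower in number 3, and the latter called 1 member in G against A. With weights for sample quality, calls numbered 3 in G against B, 4271 in number 2, 1814 in number 5 and 4097 in number 6, with 4 members there, 1 glucocorticoid-induced gene higher in number 2 and 1 lower in number 3, 2 fasting genes and 7 fed genes lower in number 6, and Pdk4 at 0.10 in G against A, a reversed sign.

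For G with A, B or C and for C with A, not every same-numbered pair had an r over 0.1. For G and A, 4 of 6 pairs did (from -0.05 to 0.49), and 3 of 6 samples were closest to their own number. These counts were 5 and 5 of 6 for G and B, 4 and 4 for G and C, and 5 and 5 for C and A. Missing this cutoff does not show that same-numbered samples are unrelated. A replicate block on the number called 391 genes in G against A, 2 in G against B, 11 in G against C and 12 over letters, with 5 members in G against A (Arrdc3, Nfkbia, Tsc22d3, Sgk1 and Klf9) and 7 glucocorticoid-induced genes higher. Without a letter term, 0 members were called in number 1 and 1 in number 6, and Tsc22d3 was no longer called in numbers 2 and 3. On the 12 samples of a pair, 5 genes, 1 member and 2 glucocorticoid-induced genes were called in G against A and 1 gene in G against C.

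Leaving out A2 and A4, an alternative chosen after seeing the data, gave 1 gene and 0 glucocorticoid-induced genes in G against A, 1 over letters, 3615 in number 2, 741 in number 4 and 1101 in number 5, with 2 members, 1 higher and 5 lower glucocorticoid-induced genes and 2 higher NF-kappaB genes in number 2, and 2 fasting genes lower in number 6; Pdk4 was at 0.26 and Nr3c1 at -0.025 in G against A, both reversed. Leaving out 1 sample at a time gave 1 to 4 genes in G against A with 0 to 2 members and 0 to 2 glucocorticoid-induced genes, 1 to 2 in G against B, in G against C and over letters. It gave 1917 to 4100 genes in number 1 with 0 to 2 members, and 3542 to 7111 in number 2 with 2 to 5 members, 1 to 5 higher and 5 to 12 lower glucocorticoid-induced genes and 2 to 14 NF-kappaB genes. It gave 543 to 2049 in number 3 with 2 to 4 members and 6 to 11 higher and 0 to 3 lower glucocorticoid-induced genes, 383 to 1976 in number 4 with 0 to 1 member, and 2 to 891 in number 5. In number 6 it gave 747 to 2999 genes with 0 to 3 members, 3 to 10 higher and 0 to 1 lower fasting genes, 1 to 2 higher and 5 to 9 lower receptor machinery genes, and 1 to 6 lower fed genes. Over numbers it gave 8528 to 10210 genes and 7 to 8 members. In G against A, Fkbp5 ran from -0.0087, a reversed sign, without A1 to 0.46 without A3. Pdk4 ran from -0.24 without A5 and reversed to 0.03 without A2, 0.13 without A4, 0.16 without A6 and 0.07 without G6. Arrdc3 passed in 8 of 24 such fits (adjusted p 0.0224 to 0.195) and Nfkbia in 2 of 24. DESeq2 on counts was not run, since the table holds no raw counts.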
